A study of Schizosaccharomyces pombe with 4 samples.

Results

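The 9 genes of thiamine and vitamin B6 metabolism that fission yeast represses when thiamine is present were read on 4 tiling arrays of newly made histone H3, each hybridised in 2 colours. They are the biosynthesis genes thi3 (nmt1), thi2 and thi4, the kinase gene SPCC18B5.05C, the TENA/THI family gene SPBC530.07C, the pyridoxal phosphate synthase gene snz1, the transporter genes thi9 and bsu1, and the acid phosphatase gene pho4. Each gene was read from the probes of a fixed interval in array coordinates, 52 probes in all, with 2 kb on either side. The 9 genes stand among 4596 protein-coding genes with at least 3 probes, and the 52 probes among 41020 probes used. No transcript was measured on these arrays, so the repression that names the group was not checked here.

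All 4 cultures were Schizosaccharomyces pombe cells with the cdc25-22 allele (written cdc22-25 in the growth protocol) and an H3 gene whose tag Cre recombinase changes to T7 when β-estradiol is added. They also carried a tetO-ade6+ reporter and TetR-Clr4, the H3 lysine methyltransferase Clr4 fused to the Tet repressor, under a thiamine-repressible promoter that the labels do not name. The groups were clr3-CDx2 ON, wt ON, clr3-CDx2 OFF and wt OFF, each 1 array. ON cells had grown for 20 generations without thiamine, and OFF cells received 5 µg/ml thiamine and 2.5 µg/ml tetracycline. Clr3 is a histone deacetylase, and no source used here describes its CDx2 allele. Cells grown at 26 °C were held at 36 °C for 4 h in G2/M, received 1 µM β-estradiol for 2 h and were fixed with 1% formaldehyde. The labels also call the samples growing cells, and the arrest was not checked here. The Cy5 channel holds DNA precipitated with H3-T7, and the Cy3 channel holds the input, DNA of the whole-cell extract. Total H3 was not measured, and thiamine, tetracycline and tethered Clr4 changed together between ON and OFF, so their parts cannot be told apart.

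Fission yeast makes thiamine by joining a pyrimidine to a thiazole, and it also takes the vitamin up from the medium. When thiamine runs out, transcription factors that include Thi1 and Thi5 switch on the synthesis and uptake genes, and the promoter of nmt1 ("no message in thiamine") is widely used to turn cloned genes on and off. A strongly transcribed gene exchanges its nucleosomes, so newly made H3 can enter, and it can also lose nucleosomes.

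Some promoter letters are shared by part of the 9 genes, and no 8-letter word was found at more than 4 of them. In RefSeq assembly ASM294v3 the word TATATAAA, searched on both strands between 250 bases before and 50 bases after the annotated gene start, was found at 4 of the 9 genes and in 7.67% of 5111 such windows. At all 4 genes one copy began 33 or 34 bases before the start on the gene's own strand, and 1.08% of the 5111 windows hold a copy that begins 40 to 21 bases before it. The 100 bases before the start of these 4 genes are printed because they hold this shared word. Probe distances below are counted from the edge of the gene's fixed array interval on its start side, not from the annotated start. By the placement used here the annotated start lay upstream of that edge at these 4 genes. The probes named at -270 bp can therefore lie inside the printed stretch at pho4 and SPBC530.07C. Each stretch runs 5′ to 3′ on the gene's strand and ends at the base before the annotated start, with TATATAAA in capitals.
thi3 (chrIII:1838315-1838414, plus strand): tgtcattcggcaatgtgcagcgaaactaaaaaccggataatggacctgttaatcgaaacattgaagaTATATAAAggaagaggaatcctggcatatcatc
thi2 (chrII:3940426-3940525, plus strand): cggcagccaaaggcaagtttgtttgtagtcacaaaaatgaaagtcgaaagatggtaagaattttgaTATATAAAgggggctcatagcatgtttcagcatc
pho4 (chrII:447029-447128, minus strand): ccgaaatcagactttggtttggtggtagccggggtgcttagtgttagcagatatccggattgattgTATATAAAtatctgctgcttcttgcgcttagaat
SPBC530.07C (chrII:805275-805374, minus strand): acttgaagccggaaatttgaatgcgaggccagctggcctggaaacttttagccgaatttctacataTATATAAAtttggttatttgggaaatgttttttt
The thi2 window holds a further TATATAAA from base -200, overlapped by a copy on the other strand. The shorter word TATAAA was in 6 of the 9 windows and in 48.1% of all. AATTTGCA, the rarest of the 8-letter words found at 4 of the genes, was in the windows of thi2, thi4, thi9 and pho4 and in 4.13% of all, at no shared distance from the start. The 8-letter words named are those held by the most of these same 9 windows, so their shares of all windows are no test. These are matches of letters and were not tested as binding sites.

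All values below are log2 values relative to the median probe of the same array, for Cy5 over Cy3 (the ratio), Cy5 alone or Cy3 alone, and the value of a gene is the mean of its probes. Every probe of the 9 genes was well above background on all 4 arrays. ON was compared with OFF by limma over all genes, with genotype as a term and Benjamini-Hochberg adjustment, and a gene passed at an adjusted p under 0.05. That fit rests on 2 arrays against 2 with 1 residual degree of freedom. Its spread is how far the ON minus OFF difference varied between the genotypes, shared over genes by limma, not between repeats of a culture. Multiplicative detrending by the scanner software was applied to both channels of the OFF arrays but to Cy3 alone on the ON arrays, a difference that moves with the ON state.

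In the ratio of new H3 to input, 5 of the 9 genes rose in ON cells and none fell. The background over all 4596 genes was 5.00% higher and 2.83% lower, or 230 and 130 genes. Starting from median spot signals with normexp background correction, in place of the processed signals, these counts were 44 and 11, and with array spreads made equal they were 155 and 138, so the split between higher and lower depends on the scaling. The median of the 9 differences was 0.41, against 0.0066 over all genes. In 7 of the 9 genes both ON arrays lay above both OFF arrays, and in thi2 both lay below, where 25.5% and 23.1% of all genes did so. With 1 array left out and the genotype term dropped, the count of 5 became 0 without wt OFF, 1 without clr3-CDx2 OFF, 2 without wt ON and 3 without clr3-CDx2 ON. Over all genes those fits called 0, 13, 18 and 62 higher, and 0, 1, 6 and 34 lower.

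**Figure D1:**
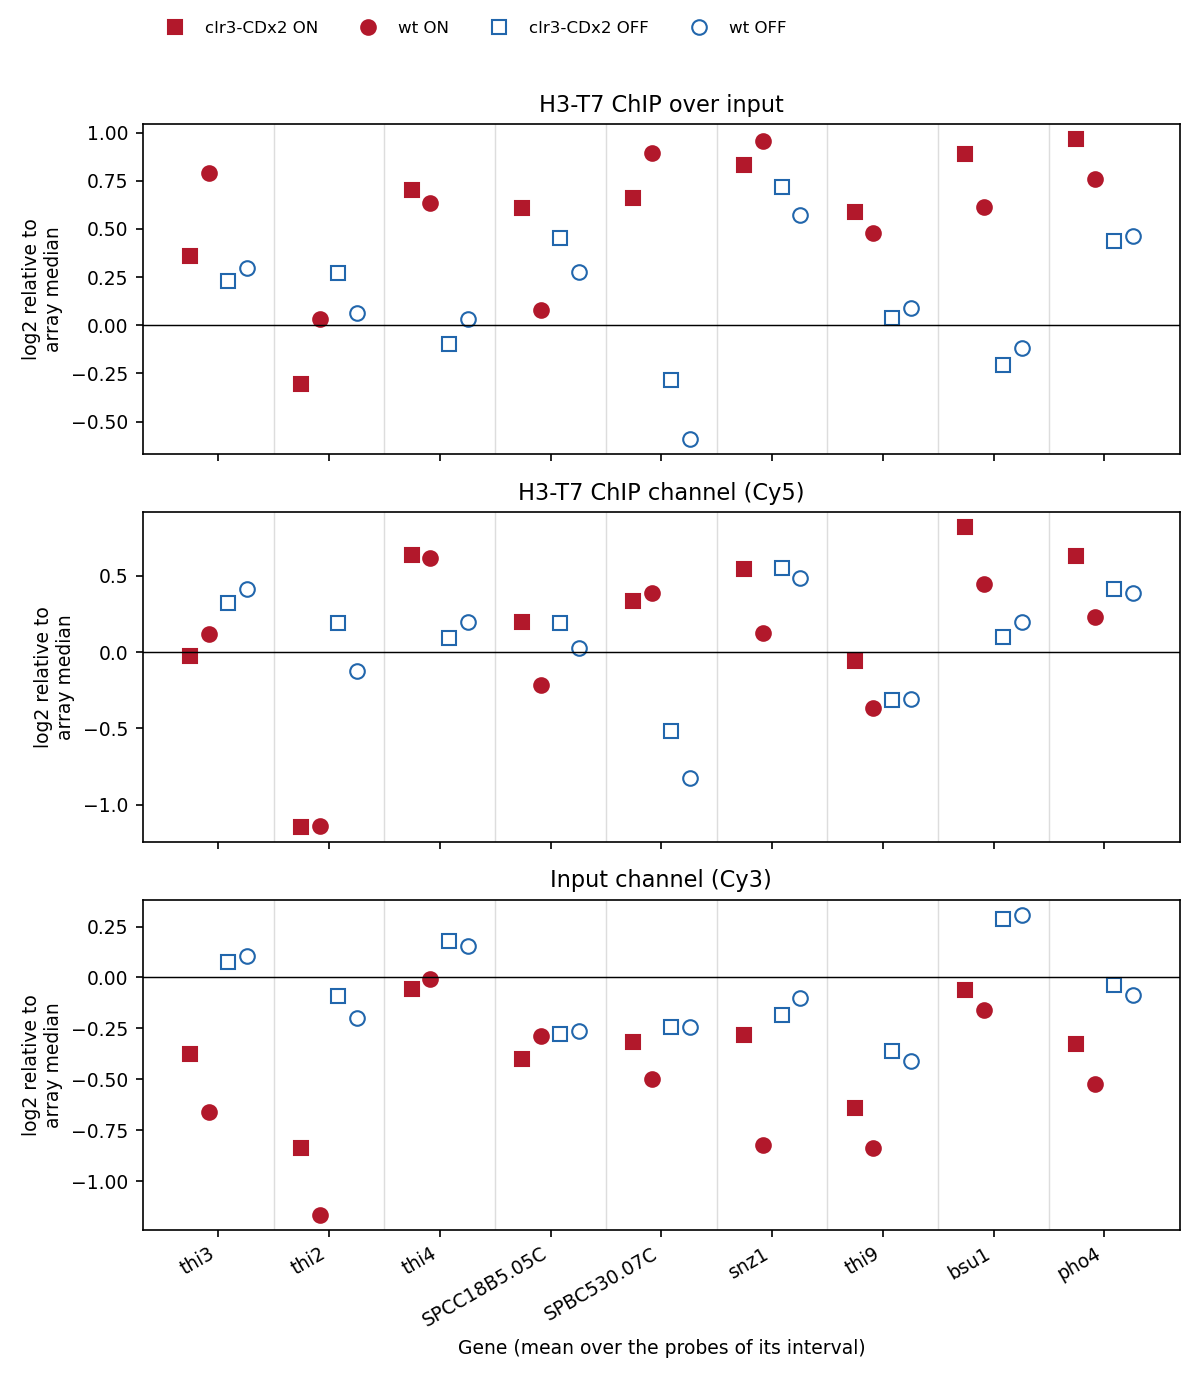
Level of the 9 genes on each array, as the mean over the probes of the gene in log2 units relative to the array median, for the ratio (top), Cy5 (middle) and Cy3 (bottom). Filled symbols are ON arrays and open symbols OFF arrays, squares clr3-CDx2 and circles wt. In Cy3 both ON symbols lie below both OFF symbols for each of the 9 genes, while in Cy5 the order differs between genes.

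SPBC530.07C (chrII:804139-805274, minus strand; array positions 805200 to 805860) encodes a protein of the TENA/THI family, relatives of which in bacteria and plants break down or salvage thiamine. Its ratio was 0.66 in clr3-CDx2 ON and 0.89 in wt ON cells, against -0.28 in clr3-CDx2 OFF and -0.59 in wt OFF cells. Both ON arrays were high and both OFF arrays low, without overlap, and in order of level it was 108 of 4596 genes in wt ON cells, against 4519 in wt OFF cells. Over both genotypes the ratio rose by 1.22 (SE 0.13, limma adjusted p = 3.89e-06), or 2.32-fold, the second highest of 4596 genes. The rise lay in the precipitated DNA: Cy5 was 0.34 and 0.39 in clr3-CDx2 ON and wt ON cells, against -0.51 and -0.82 in clr3-CDx2 OFF and wt OFF cells. The Cy5 rise of 2.04-fold (log2 SE 0.12, limma adjusted p = 4.62e-14) was the fourth highest of all genes.

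Bsu1 (SPAC17A2.01, chrI:3550034-3552067, plus strand; array positions 3550800 to 3552660) carries vitamin B6 into the cell. The bsu1 ratio was 0.89 in clr3-CDx2 ON and 0.61 in wt ON cells, against -0.20 in clr3-CDx2 OFF and -0.12 in wt OFF cells. Here too the ON arrays lay clear of the OFF arrays, and all 7 probes were higher in ON cells of either genotype. The gene rose by 0.91 (SE 0.13, limma adjusted p = 4.55e-05), the eleventh highest difference. Its Cy5 rose by 0.49 (adjusted p = 0.00292), beside a Cy3 difference of -0.41.

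The gene thi4 (SPAC23H4.10C, chrI:1589933-1593248, plus strand; array positions 1590900 to 1593960) encodes the bifunctional enzyme that phosphorylates hydroxyethylthiazole and couples it to the pyrimidine. It had ratios of 0.70 in clr3-CDx2 ON and 0.63 in wt ON cells, against -0.10 in clr3-CDx2 OFF and 0.035 in wt OFF cells. The groups did not overlap, and each of the 11 probes was higher in ON cells of both genotypes. The rise was 0.70 (SE 0.12, limma adjusted p = 0.000666) in the ratio and 0.48 in Cy5 (adjusted p = 0.00334).

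Ratios of thi9 and pho4 rose less, and little of their rise was in Cy5. Thi9 (SPAC9.10, chrI:1482419-1484752, plus strand; array positions 1483200 to 1485360) is a plasma membrane thiamine transporter, with ratios of 0.59 in clr3-CDx2 ON and 0.48 in wt ON cells, against 0.04 in clr3-CDx2 OFF and 0.09 in wt OFF cells. Pho4 (SPBC428.03C, chrII:445324-447028, minus strand; array positions 446100 to 447660) is the thiamine-repressible acid phosphatase, with ratios of 0.96 in clr3-CDx2 ON and 0.76 in wt ON cells, against 0.44 in clr3-CDx2 OFF and 0.46 in wt OFF cells. Both genes were without overlap between ON and OFF arrays. The thi9 ratio rose by 0.47 (SE 0.12, limma adjusted p = 0.0173) and the pho4 ratio by 0.41 (SE 0.12, adjusted p = 0.0391). Both calls ended with normexp (adjusted p = 0.0807 for thi9 and 0.122 for pho4), without the detrending (0.0516 and 0.100) and without the genotype term. The pho4 call also ended with equal array spreads (0.27, adjusted p = 0.233), with the median over probes and with intervals moved to the left. Cy5 differed by 0.10 for thi9 and 0.03 for pho4, with adjusted p of 0.729 and 0.937.

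The ratio of the other 4 genes did not pass. Nmt1, the product of thi3 (SPCC1223.02, chrIII:1838415-1839664, plus strand; array positions 1839300 to 1840260), makes the hydroxymethylpyrimidine phosphate part of thiamine. Its ratio was 0.36 in clr3-CDx2 ON and 0.79 in wt ON cells, against 0.23 in clr3-CDx2 OFF and 0.30 in wt OFF cells, a difference of 0.31 (adjusted p = 0.14). The B6 synthase gene snz1 (SPAC29B12.04, chrI:5414938-5416193, plus strand; array positions 5410500 to 5411460) was high on every array, at 0.83 in clr3-CDx2 ON and 0.96 in wt ON cells, against 0.72 in clr3-CDx2 OFF and 0.57 in wt OFF cells. The difference of 0.25 had an adjusted p of 0.238.

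For thi2 (SPBC26H8.01, chrII:3940526-3941699, plus strand; array positions 3942300 to 3943260), which encodes the enzyme of thiazole synthesis, the ratio was -0.30 in clr3-CDx2 ON and 0.035 in wt ON cells, against 0.27 in clr3-CDx2 OFF and 0.06 in wt OFF cells. The wt arrays were nearly equal, and the difference of -0.30 over both genotypes had an adjusted p of 0.166. It passed where the interval was moved 300 bp upstream (-0.44, adjusted p = 0.0381). SPCC18B5.05C (chrIII:726794-728317, minus strand; array positions 726900 to 728160), annotated as a phosphomethylpyrimidine kinase, had ratios of 0.61 in clr3-CDx2 ON and 0.08 in wt ON cells, against 0.45 in clr3-CDx2 OFF and 0.28 in wt OFF cells. Its ON arrays lay on both sides of its OFF arrays, and the difference was -0.02 (adjusted p = 0.953).

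At thi2 both channels were lower in ON cells, by more than at any other of the 9 genes. Cy5 at thi2 was -1.15 in clr3-CDx2 ON and -1.14 in wt ON cells, against 0.19 in clr3-CDx2 OFF and -0.13 in wt OFF cells. Both ON arrays placed it among the lowest genes in precipitated H3-T7 DNA, 4571 and 4566 of 4596, and both OFF arrays did not. The Cy5 signal fell by 1.17 (SE 0.12, limma adjusted p = 4.96e-18), or 2.26-fold, the lowest difference of all 4596 genes. Input moved the same way: Cy3 at thi2 was -0.84 in clr3-CDx2 ON and -1.16 in wt ON cells, against -0.09 in clr3-CDx2 OFF and -0.20 in wt OFF cells. In all, 3 of the 9 genes rose in Cy5 (SPBC530.07C, bsu1 and thi4) and 1 fell, against 4.26% and 3.15% of all genes. For Cy5 the fit estimated 1 spread for all genes, which gives each the same SE of 0.12. The thi2 and SPBC530.07C calls were lost when either ON array was left out with the genotype term dropped (adjusted p = 0.172 to 0.248), in fits that called no gene of 4596. Those of thi4 and bsu1 were lost without the genotype term (adjusted p = 0.0503 and 0.0901) and with any of the 4 arrays left out, and without clr3-CDx2 ON the bsu1 difference was 0.30.

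Cy5 at thi3 was -0.02 in clr3-CDx2 ON and 0.12 in wt ON cells, against 0.32 in clr3-CDx2 OFF and 0.42 in wt OFF cells. The ON arrays were lower without overlap, by 0.32 over both genotypes (log2 difference -0.32, adjusted p = 0.0875), and the difference passed without the detrending (-0.38, adjusted p = 0.0376). Cy5 at snz1 was 0.54 in clr3-CDx2 ON and 0.12 in wt ON cells, against 0.55 in clr3-CDx2 OFF and 0.48 in wt OFF cells, so that only the wt ON array stood apart. Of the 9 genes, thi3 and thi2 had both ON arrays below both OFF arrays in Cy5, a share no higher than the 26.7% of all genes.

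Input DNA was lower in ON cells at every one of the 9 genes, in both genotypes. The differences were -0.85 for thi2, -0.61 for thi3, -0.41 for snz1, -0.41 for bsu1, -0.36 for pho4, -0.35 for thi9, -0.20 for thi4, -0.16 for SPBC530.07C and -0.08 for SPCC18B5.05C. Their median was -0.36, against -0.0027 over all genes. For all 9, both ON arrays lay below both OFF arrays in Cy3, which was so for 15.9% of all genes. At SPCC18B5.05C this was by a narrow margin, with -0.286 in wt ON against -0.276 in clr3-CDx2 OFF cells. Its wt difference of -0.02 was 2643 of 4596 genes from the highest, near the middle of all genes. In limma no gene of 4596 passed in Cy3 (0% in either direction). In Cy3 limma leaned less on the spread shared over genes, with 5.21 prior degrees of freedom against an unlimited number in Cy5. The adjusted p-values of the 2 channels therefore cannot be compared directly. At thi2 the SE was 0.072 in Cy3 and 0.12 in Cy5. At an unadjusted p under 0.05 in Cy3, 8 of the 9 were lower, against 55 of 4596 genes (1.20%), and thi2 came nearest with an adjusted p of 0.0806. With array spreads made equal 6 genes in all passed as lower, and 5 of them were members. With 1 array left out and no genotype term, 8 of the 9 passed as lower without clr3-CDx2 ON, in a fit that called 421 genes lower and 342 higher. Without wt ON 6 of the 9 passed, among 40 lower and 75 higher, and without either OFF array 1 did, as the 1 gene called lower.

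**Figure D2:**
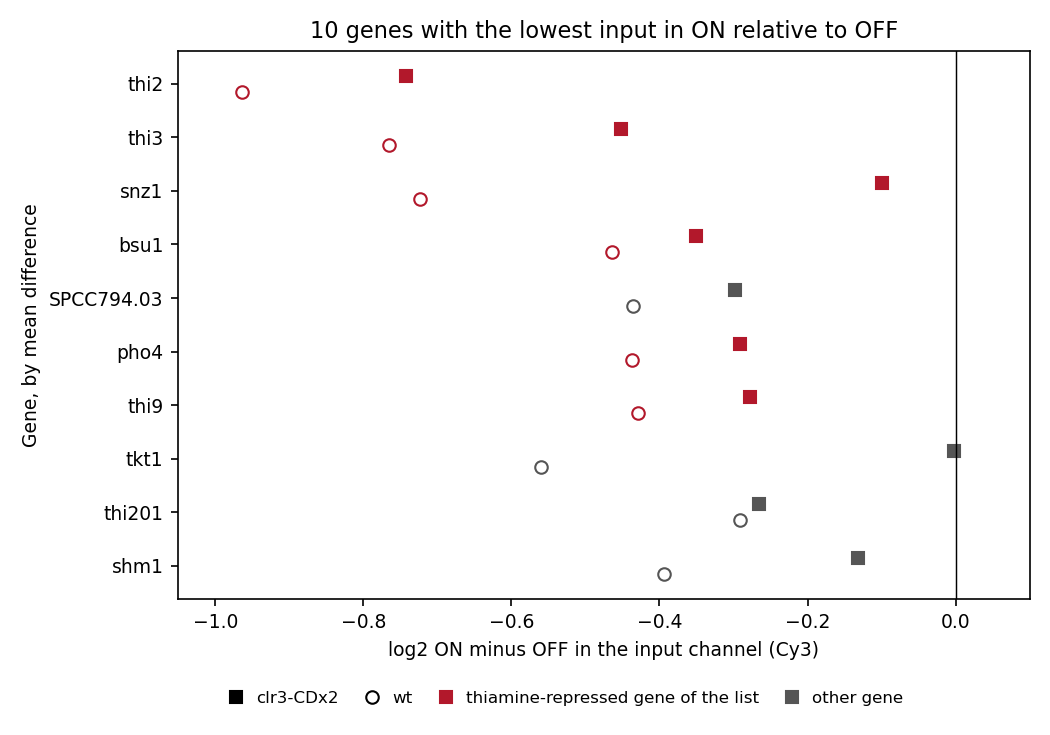
The 10 genes of 4596 with the lowest ON minus OFF difference in the input channel (Cy3, log2), ordered by the mean of both genotypes from the top, with squares for clr3-CDx2 and open circles for wt. Red marks 6 of the 9 thiamine-repressed genes, from thi2 at the top to thi9, and grey marks other genes. Points left of 0 have less input DNA in ON cells.

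Ordered by this difference, the lowest 4 genes of all 4596 were thi2, thi3, snz1 and bsu1, and pho4 and thi9 were the sixth and seventh. Between them came SPCC794.03, which RefSeq annotates as a thiamine transporter, at -0.37 (adjusted p = 0.756). The next 3 were tkt1, a transketolase gene, at -0.28, thi201, a phosphomethylpyrimidine kinase gene, at -0.28, and shm1, a serine hydroxymethyltransferase gene, at -0.26. The tkt1 difference was in wt cells alone, at -0.56, against -0.0019 in clr3-CDx2 cells. In clr3-CDx2 and wt cells thi201 differed by -0.27 and -0.29, and shm1 by -0.13 and -0.39. Transketolase needs thiamine pyrophosphate, and serine hydroxymethyltransferase needs pyridoxal phosphate. The 10 genes were read off after their values were known, and none passed the limma test.

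The 2 genotypes agreed in direction for the 9 genes in Cy3 but not in size. In clr3-CDx2 cells the ON minus OFF difference in Cy3 ran from -0.74 (thi2) to -0.07 (SPBC530.07C), and in wt cells from -0.96 (thi2) to -0.02 (SPCC18B5.05C). The greatest gap was at snz1, with -0.10 in clr3-CDx2 and -0.72 in wt cells. The snz1 Cy3 levels were -0.28 in clr3-CDx2 ON and -0.82 in wt ON cells, against -0.18 in clr3-CDx2 OFF and -0.10 in wt OFF cells. At 1.5-fold, thi2 was lower in clr3-CDx2 cells, where 0.0435% of all genes were, and thi2, thi3 and snz1 were lower in wt cells, where 0.109% were. None was higher, where 0% in clr3-CDx2 and 0.0435% in wt cells were. The wt ON array set the place of snz1 in the order: without it the difference was -0.14.

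**Figure D3:**
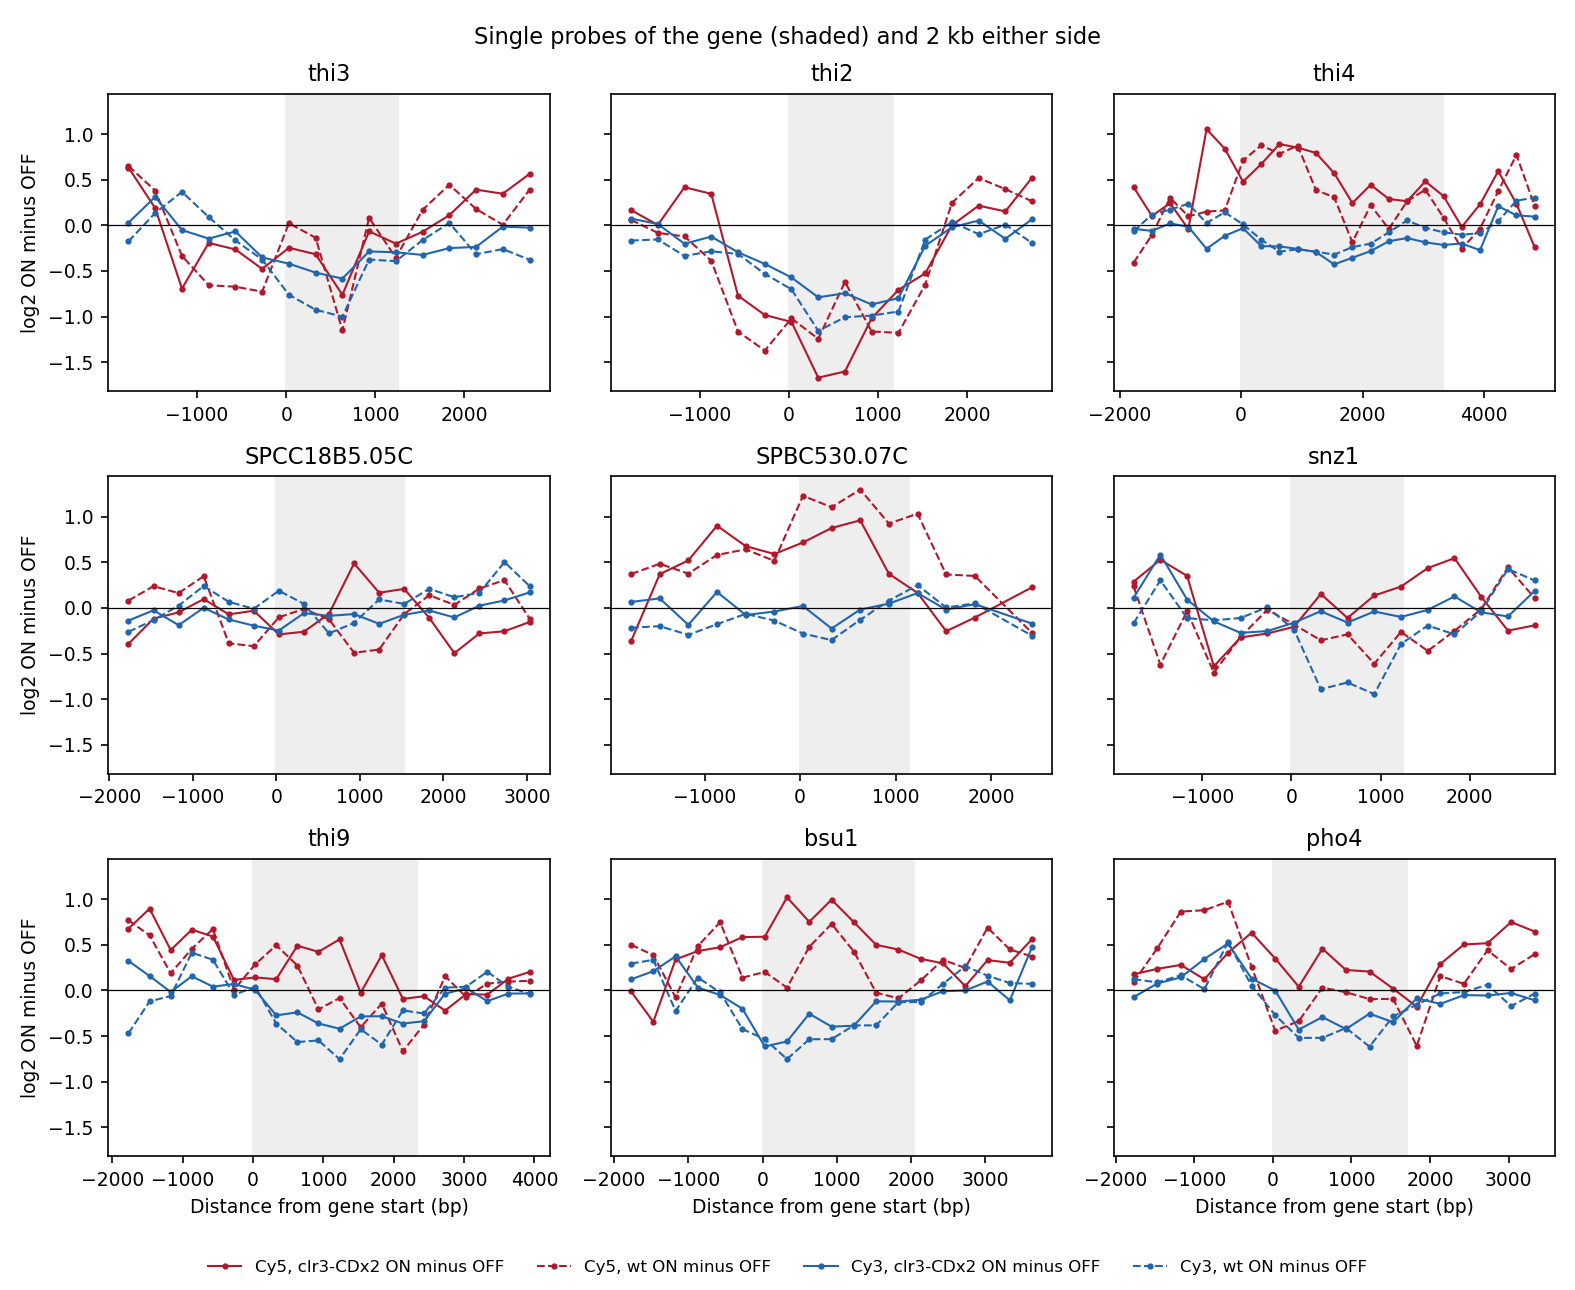
ON minus OFF difference (log2) of single probes, for the 9 genes and 2 kb either side. Distance is in bp from the edge of the fixed array interval on the gene's start side. The shading spans the gene's annotated length from that edge. The annotated start lies off this edge by an amount that differs between genes. Red is Cy5 and blue Cy3, solid lines clr3-CDx2 and dashed lines wt. The blue lines dip inside the shaded gene and return towards 0 outside it for thi2, thi3, thi9, bsu1 and pho4, with thi2 lower by 0.74 to 1.16 inside the gene beyond its first probe.

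Probe by probe, the lower input lay mostly over the genes themselves. In a fit with single probes as the unit, chosen after the gene values were known, 51 of the 52 gene probes had a Cy3 difference below 0, against 20493 of all 41020 probes. Of the 52, 13 passed as lower and none as higher, where 0.275% of all probes passed as lower. They were all 4 probes of thi2, 3 of the 4 of thi3, 3 of bsu1, 2 of thi9 and 1 of pho4, and 10 of them were among the 100 lowest probes of the array. In the 54 upstream probes 32 were below 0 and in the 53 downstream probes 31 were, with 1 passing as lower on each side, both of them next to thi2. Another, at -570 bp from the start-side edge of the pho4 interval, passed as higher, where 0.829% of all probes did. The sheared DNA had fragments of about 1000 bp, per the labels' protocol, so neighbouring probes are not independent.

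At thi2 the input was lower from -270 to 1230 bp from the start-side edge of its interval. Over the probes at 330, 630 and 930 bp the Cy3 difference was -0.79, -0.74 and -0.87 in clr3-CDx2 and -1.16, -1.01 and -0.99 in wt cells. At 1530 bp it was -0.22 in clr3-CDx2 and -0.16 in wt cells, and at -870 bp it was -0.12 in clr3-CDx2 and -0.28 in wt cells. In thi3 the probe at 630 bp was the lowest, and that at 330 bp was at -0.52 in clr3-CDx2 and -0.93 in wt cells. In thi4, the longest of the 9 genes, the dip was shallow and lay in the middle, with -0.43 in clr3-CDx2 and -0.32 in wt cells at 1530 bp. Near its start and its end (30 and 3030 bp) the 4 differences lay between -0.19 and 0.01.

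In the ratio 19 of the 52 gene probes passed as higher and none as lower, against 4.26% and 2.65% of all probes. Cy5 had a different shape. Of the 52 gene probes, 7 passed as higher and 5 as lower, against 1.25% and 0.480% of all probes. The 5 were the 4 probes of thi2 and the 630 bp probe of thi3. At thi4 the gain was in the first part of the gene, with Cy5 differences of 0.67 to 0.89 in clr3-CDx2 and 0.79 to 0.88 in wt cells over the probes from 330 to 930 bp, and of 0.25 in clr3-CDx2 and -0.19 in wt cells at 1830 bp. At SPBC530.07C all 3 gene probes passed as higher, and so did the probe at -870 bp, with 0.90 in clr3-CDx2 and 0.58 in wt cells. Over the 2 kb downstream of it Cy5 differed by 0.08 in clr3-CDx2 and 0.48 in wt cells, and the downstream fit did not pass (adjusted p = 0.129).

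Upstream of the genes Cy5 went in both directions. Averaged over the 2 probes at -570 and -270 bp, thi2 stood at -0.75 in clr3-CDx2 ON and -1.16 in wt ON cells, against 0.12 in clr3-CDx2 OFF and 0.11 in wt OFF cells. The thi3 mean was 0.34 in clr3-CDx2 ON and 0.03 in wt ON cells, against 0.71 in clr3-CDx2 OFF and 0.73 in wt OFF cells. Both genes were lower on both ON arrays. By contrast pho4 was at -1.30 in clr3-CDx2 ON and -1.40 in wt ON cells, against -1.82 in clr3-CDx2 OFF and -2.01 in wt OFF cells. SPBC530.07C was at -0.45 in clr3-CDx2 ON and -0.26 in wt ON cells, against -1.08 in clr3-CDx2 OFF and -0.84 in wt OFF cells. These 4 promoters all have the TATATAAA word printed above, and Cy5 was lower at 2 of them and higher at the other 2. The averaged probes do not lie at 1 shared distance from the annotated starts. In clr3-CDx2 and wt cells, Cy3 over the same probes differed by -0.36 and -0.42 at thi2 and -0.21 and -0.27 at thi3. It differed by 0.32 and 0.29 at pho4, and by -0.06 and -0.10 at SPBC530.07C. The 2 thi2 probes passed the single-probe fit in Cy5 (adjusted p = 0.0187 and 0.00845), and those of thi3 did not.

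**Figure D4:**
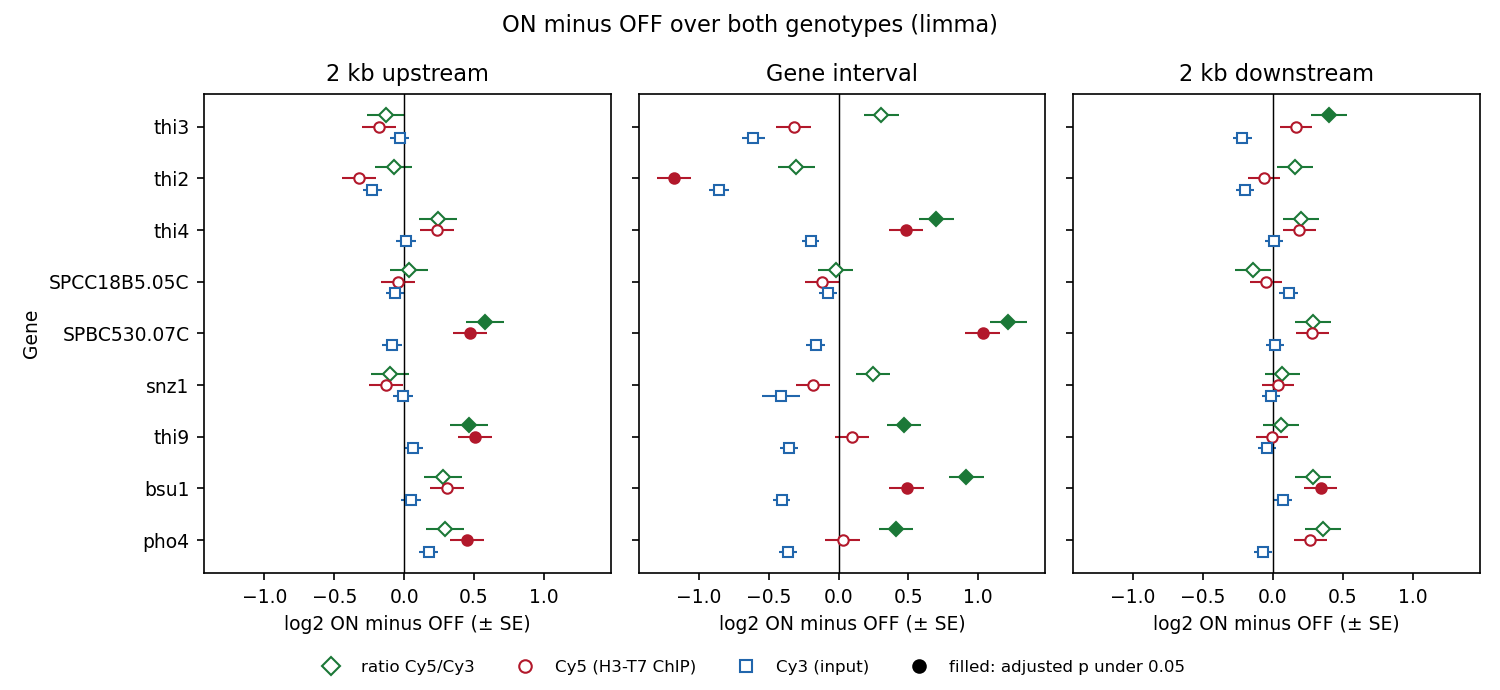
ON minus OFF difference over both genotypes with its SE (log2, limma) for the 2 kb upstream (left), the gene (middle) and the 2 kb downstream (right) of the 9 genes. Diamonds are the ratio, circles Cy5 and squares Cy3, and filled symbols passed at an adjusted p under 0.05. In the middle panel all squares lie left of 0, while in the side panels they lie on both sides of 0.

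Over the whole 2 kb upstream, the ratio rose at 2 of the 9 genes and fell at none, against 7.42% and 2.79% of 5097 upstream stretches. It rose by 0.58 at SPBC530.07C (limma adjusted p = 0.000767) and by 0.46 at thi9 (adjusted p = 0.0119). With normexp the thi9 call was lost (0.40, adjusted p = 0.103) and thi4 passed (0.48, adjusted p = 0.0406). For the flank ratios the fit estimated 1 spread for all stretches, with an SE of 0.14 upstream and 0.13 downstream. Upstream of thi9 the ratio was 0.16 in clr3-CDx2 ON and 0.21 in wt ON cells, against -0.30 in clr3-CDx2 OFF and -0.25 in wt OFF cells, without overlap. Cy5 rose upstream of thi9 (0.51), SPBC530.07C (0.47) and pho4 (0.45), where 8.91% of stretches rose and 2.37% fell. With normexp none of these 3 passed, and pho4 moved to 0.09. Downstream, the ratio rose at thi3 alone, by 0.40 (adjusted p = 0.0245), against 5.75% of 5097 stretches that rose and 4.12% that fell, and Cy5 at bsu1 alone, by 0.34 (adjusted p = 0.0477), against 5.73% that rose and 3.28% that fell. Downstream of thi3 the ratio was 0.75 in clr3-CDx2 ON and 0.65 in wt ON cells, against 0.34 in clr3-CDx2 OFF and 0.24 in wt OFF cells. There Cy5 differed by 0.17 (limma adjusted p = 0.408) and Cy3 by -0.22. Each of the flank calls made from the processed signals was lost without the genotype term.

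Some flanks belong to neighbouring genes that rose as well. The ratio of gut2, a glycerol-3-phosphate dehydrogenase gene that faces thi3 from 929 bp downstream, rose by 0.49 (limma adjusted p = 0.0125). That of met26, a homocysteine methyltransferase gene 1246 bp upstream of thi9, rose by 0.60 (adjusted p = 0.00265). And eca39, a branched-chain aminotransferase gene 1387 bp downstream of pho4, rose by 0.62 (adjusted p = 0.0024). No other neighbour with enough probes passed in the ratio, in Cy5 or in Cy3.

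Taken one genotype at a time, with 1 array a side and no test, the ratio was at least 1.5-fold higher in ON at 3 of the 9 genes in clr3-CDx2 cells and at 3 in wt cells. Over all genes 1.52% and 2.28% were so. They were bsu1 (1.09 in clr3-CDx2 and 0.73 in wt), SPBC530.07C (0.95 and 1.48) and thi4 (0.80 and 0.60) in either genotype. No member was at least 1.5-fold lower, where 0.805% of genes in clr3-CDx2 and 1.70% in wt cells were. For thi2 the ON minus OFF ratio was -0.57 in clr3-CDx2 and -0.03 in wt cells, just short of 1.5-fold in clr3-CDx2.

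Between the genotypes the 9 genes differed little in the ratio. No member passed the limma test of clr3-CDx2 against wt in the ratio, where 0.805% of genes passed as higher and 0.174% as lower. The median of the 9 differences was 0.03, against -0.02 over all genes. In the single channels it was 0.12 in Cy3 and 0.15 in Cy5, against 0.0061 and -0.014 over all genes. The lowest limma adjusted p of a member was 0.985 in Cy3 and 0.492 in Cy5. In ON cells alone the member medians were 0.19 in Cy3 and 0.31 in Cy5, and in OFF cells 0.00018 and 0.026. In the ratio the member with the lowest unadjusted p was SPCC18B5.05C, at 0.35 (SE 0.13, unadjusted p = 0.00994, adjusted p = 0.336). It was higher in clr3-CDx2 cells in both ON (0.61 against 0.08) and OFF (0.45 against 0.28). No member reached 1.5-fold between the genotypes in ON cells, where 0.979% of genes were higher and 0.522% lower, or in OFF cells, where 0.587% were higher and 0.218% lower. In the 2 kb upstream, pho4 was higher in clr3-CDx2 cells by 0.55 (adjusted p = 0.00328), where 2.43% of stretches passed as higher. Its upstream ratio was 0.08 in clr3-CDx2 ON and -0.31 in wt ON cells, and -0.06 in clr3-CDx2 OFF and -0.76 in wt OFF cells. That call was lost in each of the 7 alternatives run, with an adjusted p of at least 0.0551.

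A list of 16 other genes held regulators and genes of thiamine and B6 metabolism, and genes of enzymes that only use thiamine pyrophosphate. Of these 16 genes, 5 rose in the ratio in ON cells and none fell, against 5.00% and 2.83% of all genes. The median of the 16 was 0.30. The largest difference was at thi201, the phosphomethylpyrimidine kinase gene named above, with ratios of 0.79 in clr3-CDx2 ON and 0.94 in wt ON cells, against -0.16 in clr3-CDx2 OFF and 0.13 in wt OFF cells. It rose by 0.88 (SE 0.12, limma adjusted p = 4.55e-05). The other 4 encode enzymes that use thiamine pyrophosphate, namely pdc201 (0.73), tkt1 (0.68), pdc101 (0.43) and pdc202 (0.42), of which the 3 pdc genes are annotated as pyruvate decarboxylases. Cy5 rose at thi201 (0.58), pdc201 (0.57) and tkt1 (0.38), where 4.26% of all genes rose and 3.15% fell. It fell at pdc102 (-0.44, adjusted p = 0.00865), which encodes another pyruvate decarboxylase and whose arrays overlapped. In pdc102 the ON minus OFF difference in Cy5 was 0.18 in clr3-CDx2 and -1.06 in wt cells. Between the genotypes 2 of the 16 passed, both lower in clr3-CDx2 cells, where 0.174% of all genes were. They were pdc101 (-0.50, adjusted p = 0.0400) and ilv1 (-0.53, adjusted p = 0.0256), an acetolactate synthase gene. The genes of the transcription factors Thi1 and Thi5 did not pass, with ratio differences of -0.11 (adjusted p = 0.655) and 0.35 (adjusted p = 0.0797).

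The 5 genes whose Cy5 and Cy3 differences in the 2 genotypes lay nearest to the median of the 9 were, in order, shm1, SPCC794.03, osh6, hry1 and eis1. Likeness was the Euclidean distance over these 4 log2 differences, with 0.21 for shm1, 0.26 for SPCC794.03 and 0.29 for eis1. Among the members themselves that distance ran from 0.01 for pho4 to 1.91 for thi2. The ratio of SPCC794.03 was 0.55 in clr3-CDx2 ON and 0.91 in wt ON cells, against 0.20 in clr3-CDx2 OFF and 0.44 in wt OFF cells, a rise of 0.41 (limma adjusted p = 0.0367). Its Cy5 difference was 0.03 in clr3-CDx2 and 0.02 in wt cells. The ratio also rose at shm1 (0.40, limma adjusted p = 0.0401) and eis1 (0.39, adjusted p = 0.0449), where 5.00% of all genes rose. It did not pass at osh6 (0.30, adjusted p = 0.131) or hry1 (0.21, adjusted p = 0.321). These 5 genes were picked on their Cy5 and Cy3 differences, so their ratios are no test.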

How the data were processed

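H3-T7 precipitates (Cy5) and input DNA (Cy3) of 4 cultures were hybridised to 4 arrays with probes of 60 bases about every 300 bp. The deposited scanner files hold intensity values made by the authors with Agilent Feature Extraction 12.0.3.1, per the file headers. The deposited value table holds log2 ratios of Cy5 over Cy3. Raw medians were 4442 to 7687.5 in Cy5 and 7065.5 to 13925 in Cy3, against backgrounds of 37 to 64, no spot was saturated, and the number of arrays limits the precision.

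Control and outlier spots were left out, and each channel and the log2 ratio were centred on the array median. No source used here names the array's genome build. Probes were placed on RefSeq ASM294v3 by matching GC content to the input signal, separately for 6 chromosome arms, with shifts from -4520 to 1670 bp. Gene means were fitted in R 4.3.3 with limma 3.58.1, and other steps used Python 3.11.15, NumPy 2.4.6, pandas 2.3.3 and Matplotlib 3.10.9. Single-array pairs were counted at 1.5-fold. Each group is 1 array, so the p-values measure the spread between these arrays only.

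The 9 genes and the list of 16 related genes were chosen with earlier results of these data known. All 9 are named, as are list genes that passed, adjacent genes that passed and the 5 nearest in pattern. The limma step was checked on simulated data. Alternatives were normexp on median signals (the files hold no mean signal), detrending, array spread, genotype term, left-out arrays, probe summary, filters and interval position. The single-probe fit and some flank alternatives were added after the data were seen.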

Additional observations from a re-analysis of the deposited data

Results flagged for a closer look

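The ON minus OFF difference had opposite signs in the 2 genotypes at 3 genes, with 1 array a side, and the difference between genotypes was not tested. The ratio at SPCC18B5.05C, the kinase gene, differed by 0.15 in clr3-CDx2 cells and by -0.20 in wt cells. Its Cy5 differed by 0.0078 in clr3-CDx2 cells and by -0.24 in wt cells. Cy5 at the phosphatase gene pho4 differed by 0.22 in clr3-CDx2 cells and by -0.16 in wt cells. Cy5 at the transporter gene thi9 differed by 0.25 in clr3-CDx2 cells and by -0.057 in wt cells.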

How the results depend on the processing

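The 5 genes whose ratio rose were 3 with normexp on median signals, 4 with equal array spreads, 3 without the detrending, 3 without the genotype term and 0 to 3 with 1 array left out. The count of genes that fell was 0, and 1 with intervals moved 300 bp to the left. In Cy5 the 3 that rose became 1 without the genotype term and 0 to 1 with 1 array left out, and the 1 that fell became 2 without the detrending and 0 to 1 with 1 array left out. In Cy3 no gene passed as lower, against 5 with equal array spreads and 1 to 8 with 1 array left out (6 without wt ON), in fits that called 1 to 421 genes lower. The upstream count of 2 and the downstream count of 1 were both 0 without the genotype term and 0 with any array left out. At 1.5-fold with normexp, 5 genes were higher in clr3-CDx2 ON than in clr3-CDx2 OFF cells in place of 3, and 1 was higher in clr3-CDx2 ON than in wt ON cells in place of 0. Over all genes the ratio counts of 230 higher and 130 lower became 83 and 33 without the detrending and 38 and 14 without the genotype term. Fits with an array left out assume that the lone sample of an arm varies like the others, and the causes were not tested. No paired analysis was possible because each group has 1 array, other than the genotype term itself, which sets ON against OFF within each genotype.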
